A study of Mus musculus with 43 samples.

Results

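The motile cilia genes followed here were 44 named mouse genes: the regulators that start the ciliated cell programme, and the dyneins, docking, ruler, radial spoke, central pair and doublet proteins of the moving axoneme. They were found by matching the gene identifiers of the expression table to symbols, and matching used no expression value, although the list of names was drawn up with earlier results of these data known. The table held 42 of the 44 among its 24475 genes, with no row for the dynein heavy chains Dnah3 and Dnah12. All 42 passed the filter on low counts and were among the 15979 genes tested. Dnai1 and Dnai2 carry the older symbols Dnaic1 and Dnaic2 in RefSeq.

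RNA sequencing was done on whole lung from 43 female mice of a mixed 129S6/C57BL/6 background. The age given for the mice, 8 to 12 weeks, can only be that at the start for the longer exposures. In the mice used for the antibodies, Il4, Il33 and the part of Il4ra outside the cell had been exchanged for human sequence. The 7 groups were saline (n = 5), house dust mite extract (HDM, an inhaled allergen given into the nose) for 11 weeks (n = 6) or 19 weeks (n = 7), and HDM for 19 weeks together with a control antibody of the same isotype (n = 7), with anti-IL-33 (itepekimab) plus isotype (n = 6), with anti-IL-4Rα (dupilumab) plus isotype (n = 7), or with both antibodies (n = 5). The labels do not say when these mice began antibody or how long saline was given. IL-33 is an alarm cytokine released by damaged epithelium, and IL-4Rα is the shared receptor chain of IL-4 and IL-13.

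In the airways, multiciliated cells carry many beating cilia that clear mucus. Mcidas and Ccno drive the making of many centrioles, Foxj1 is the forkhead factor that switches on the genes of the moving cilium, and the RFX factors Rfx2 and Rfx3 bind a site called the X-box in many of these genes. The core is a ring of microtubule doublets around a central pair. Outer and inner dynein arms on the doublets provide the force, and radial spokes and nexin links regulate the bend. Whole lung is a mixture of cells, so fewer ciliated cells and less RNA per ciliated cell cannot be told apart.

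X-box letters were found in the promoters of several of these genes. RefSeq windows on GRCm38.p6, from 250 bases before to 50 after a start site, were present for 36 members, giving 41 windows. The longer X-box form, GTNNCC and GGNNAC with 2 bases between them, read on both strands, was in 8 of them (19.5%), against 1.88% of all 32851 windows. The shorter form, GTNNCC and GNNAC with 2 bases between them, also read on both strands, was in 7 (17.1%), against 3.69%. Stricter versions of the longer form were rare. GTTNCC and GGNAAC with 2 bases between them was in 1 window (2.44%), that of Ccdc151, against 0.451%. GTTGCC and GGNAAC with 2 bases between them was in 0, against 0.298%. The RFX half-site GTTGCC was in 18 (43.9%), against 12.5% of all windows, and it can overlap the longer forms. The forkhead letters GTAAACA were in 2 (4.88%), close to the 3.65% of all windows. The CCAAT box was in 39.0% of the members' windows and 37.4% of all windows. The 3 stretches of 80 bases below are shown because they hold an X-box form, in capitals, and their genes are described further on. Ccno has the longer form. Spag16 and Tekt2 have the shorter form of the other strand, which reads here as GTNNC and GGNNAC with 2 bases between them.
Ccno (chr13:112987552-112987631, plus strand): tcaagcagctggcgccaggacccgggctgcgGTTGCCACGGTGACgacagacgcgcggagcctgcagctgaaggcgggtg
Spag16 (chr1:69826792-69826871, plus strand): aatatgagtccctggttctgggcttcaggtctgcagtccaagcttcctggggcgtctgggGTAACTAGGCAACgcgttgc
Tekt2 (chr4:126325689-126325768, minus strand): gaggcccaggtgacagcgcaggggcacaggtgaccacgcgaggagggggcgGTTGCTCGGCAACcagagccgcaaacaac
Each stretch lies outside the span that RefSeq annotates for its gene, upstream of the start. A match of letters is a description of the window and not a measured binding site.

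Total counts ran from 11932579 to 26749395 per library. Libraries differed in how expression followed base composition. This was measured as a GC slope, the rise in log2 expression, set against the average library, that goes with every 10 percentage points of transcript GC content, computed without the members. It ran from -0.966 to 1.21. In 9 libraries it was above 0.75, and none of them was a saline, 11-week or isotype library: 1 was a 19-week, 2 anti-IL-33, 3 anti-IL-4Rα and 3 combination libraries. The mean slope was -0.611 ± 0.178 (SD, n = 5) in saline mice and 0.157 ± 0.530 (SD, n = 7) after 19 weeks of HDM. Saline replicate 3 held 901 CPM (counts scaled to the size of the library) of basal cell genes against 3.58 to 5.44 CPM in the other saline mice, and its squamous keratins Krt4 and Krt13 stood at 5501 and 5305 CPM. 19-week replicate 1 held 278 CPM of basal cell genes. The titles also number the libraries: all saline and 11-week libraries lie in the lower run of numbers, up to 956132, and all 19-week and isotype libraries in the higher run, from 956133, so that this order and 19 weeks of HDM cannot be told apart between those groups. Nothing in the labels says whether the runs were handled apart.

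Motile cilia RNA was readily detected in saline lungs. Per kilobase of transcript, the level in saline mice was highest for the tubulin binding protein Tppp3 (171 CPM per kb) and the ciliary tubulin Tubb4b (134), of which Tubb4b is also used by other cells. Cfap126, a doublet protein also called Flattop, followed at 14.8, Foxj1 at 14.3 and the radial spoke protein Rsph1 at 13.4 CPM per kb. The 7 dynein heavy chains ranged from 0.312 for Dnah7a to 3.32 CPM per kb for Dnah6. Mcidas, a factor that acts before the cilia form, was lowest at 0.200 CPM per kb, with 2 counts in the library with the fewest. Dnah7a has close relatives, Dnah7b and Dnah7c, whose 33-base reads may have been shared with it, and its level is uncertain. In the list of male germ cell genes, which would mark sperm axonemes, Tnp1 and Acrv1 were at 0 in every library, and the sum of all 8 genes was at most 0.254 CPM in any mouse.

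The average of the 42 members gives each mouse a single level, in log2 CPM. The saline mice stood at 3.27, 3.52, 3.71, 3.74 and 3.87. The 11-week mice ran from 2.18 to 3.67 with a median of 3.11, and the 19-week mice from 2.21 to 3.21 with a median of 2.73. Every 19-week mouse was thus below every saline mouse, while 2 of the 6 11-week mice lay within the saline range. Isotype mice spread from 1.89 to 3.54 (median 3.01), anti-IL-33 mice from 2.18 to 3.88 (median 3.16) and anti-IL-4Rα mice from 2.24 to 3.31 (median 2.78). Mice given both antibodies stood at 2.98, 3.12, 3.20, 3.50 and 3.91. Means and SDs were 3.62 ± 0.233 for saline (n = 5), 2.995 ± 0.562 for 11 weeks (n = 6), 2.68 ± 0.327 for 19 weeks (n = 7), 2.82 ± 0.588 for isotype (n = 7), 3.20 ± 0.615 for anti-IL-33 (n = 6), 2.79 ± 0.362 for anti-IL-4Rα (n = 7) and 3.34 ± 0.367 for both antibodies (n = 5). The order of the group means was saline, both antibodies, anti-IL-33, 11 weeks, isotype, anti-IL-4Rα and 19 weeks, and each neighbouring pair overlapped between mice.

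**Figure D1:**
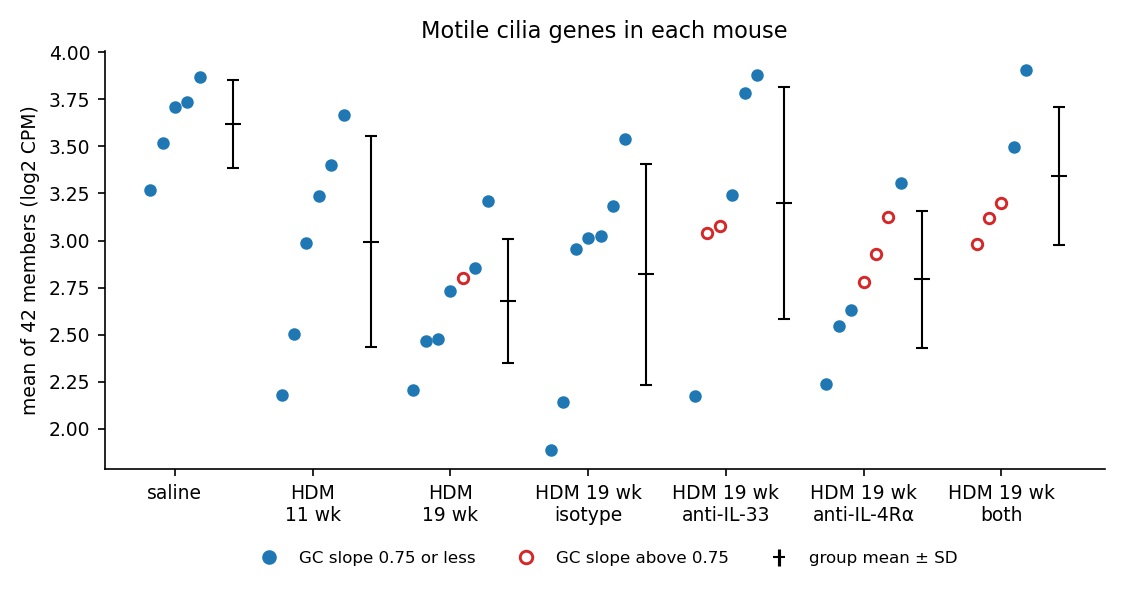
Each point is the mean log2 CPM of the 42 members in a mouse, by group. Bars give the group mean ± SD, and open red points mark the 9 libraries with a GC slope above 0.75. All 7 mice at 19 weeks of HDM lie below the saline mice, which start at 3.27.

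After 11 weeks of HDM, few members passed the test against saline, which uses a spread shared by all 7 groups. With edgeR's quasi-likelihood test and adjustment over all genes tested, 3 of 42 members were lower and 0 higher at an adjusted p under 0.05, against 6.74% of all genes lower and 8.65% higher. The 3 were Tppp3, the tektin Tekt2, a filament protein of the doublet wall, and the inner arm dynein Dnah7a. The estimate was negative for 40 of the 42, with a median log2 fold change of -0.58 against 0.00 over all genes tested. Mice of the groups did not overlap for 4 members, all lower, against 10.6% of all genes. The count of called members depended on the tool. Voom with sample weights called many more members, a count given in the closing section. It also called more of all 15979 genes, 4356 higher and 4263 lower, where edgeR called 1382 and 1077.

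Tppp3 (chr8:105467492-105471422) had 176, 211, 325, 260 and 220 CPM in the saline mice and 45.1 to 112 CPM (median 76.5) in the 11-week mice. Its log2 fold change was -1.54 (SE 0.54, adjusted p = 0.0460), and no 11-week mouse reached the saline range. Tekt2 (chr4:126322121-126325688) had 7.15, 8.70, 6.29, 10.2 and 7.76 CPM in saline and 1.82 to 4.63 CPM (median 3.54) at 11 weeks, a log2 fold change of -1.24 (SE 0.38, adjusted p = 0.0194). Dnah7a changed by -1.34 (SE 0.45, adjusted p = 0.0362). Foxj1 did not pass the test: its log2 fold change was -0.02, with a 95% interval from -1.30 to 1.26 (SE 0.66, adjusted p = 0.990). The count of 3 rested on single mice. It was 2 without saline replicate 3, 1 without saline replicate 2 or 5 or 11-week replicate 1, and 0 without saline replicate 4 or 11-week replicate 3 or 9.

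After 19 weeks of HDM, 20 of 42 members were lower than in saline and 0 were higher, against 15.6% of all genes lower and 19.2% higher. The median log2 fold change was -0.99, against 0.01 over all genes tested, and 38 of the 42 estimates were negative. For 17 members every 19-week mouse was below every saline mouse, against 14.7% of all genes. Without saline replicate 3, 22 members were lower. Leaving out other mice in turn gave 17 to 24.

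Each group of members below except the regulators held at least 1 called lower, in several groups a single gene, against 15.6% of all genes. Here fell means called lower. Of all 42 estimates 38 were negative, so most members not called also had lower estimates. Of the outer arm dyneins 1 of 5 fell, the intermediate chain Dnai1. Of the docking proteins 1 of 3 fell, Armc4. Of the inner arm dyneins 3 of 5 fell, Dnah6, Dnah7a and Dnali1, and of the factors that assemble dynein arms in the cytoplasm 1 of 2 fell, Lrrc6. The ruler, nexin link and tether proteins fell in 4 of 6 cases: Ccdc39, which with Ccdc40 sets the spacing along the doublet, the nexin link subunit Drc1, the axonemal protein Ccdc113 and the tether protein Cfap44. Of the radial spoke proteins 1 of 3 fell, Rsph4a of the spoke head. Of the central pair proteins 4 of 5 fell (Spag6l, Spag16, Spag17 and Spef2). Of the doublet and other proteins 5 of 8 fell (Ak7, Cfap52, Tekt1, Tekt2 and Tppp3). Of the 5 regulators 0 passed the test, and their median log2 fold change was 0.15, with estimates from -0.45 for Rfx3 to 0.65 for Foxj1. This depended on the handling of GC content and on the tool: Ccno and Rfx2 were called lower with a covariate for GC slope, Rfx2 with offsets for GC content and length, and Rfx2 and Rfx3 with voom. Whether the regulators differed from the axonemal genes was not tested.

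**Figure D2:**
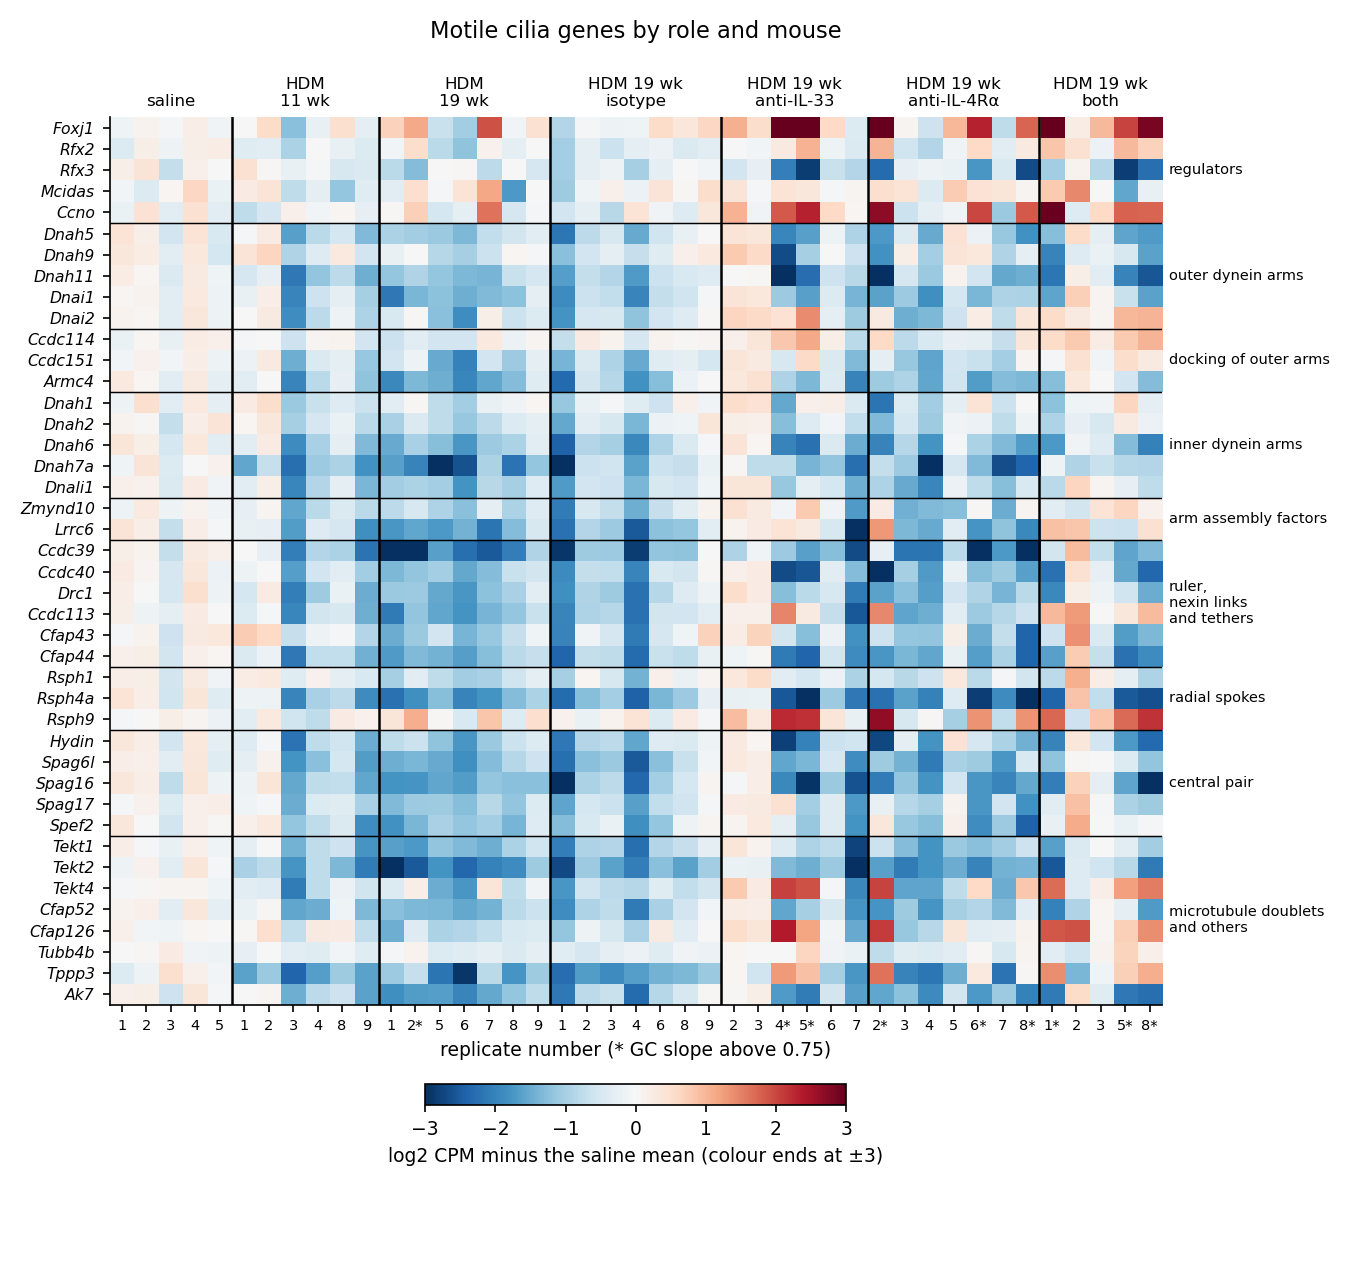
Rows are the 42 members ordered by role, columns are the mice by group and replicate number, and colour is log2 CPM minus the saline mean, with stars on libraries of GC slope above 0.75. Blue, below the saline mean, covers most axonemal rows at 19 weeks, and within the starred libraries red rows such as Foxj1, Ccno and Rsph9 stand beside blue rows such as Rsph4a and Dnah11.

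Ccdc39 (chr3:33810757-33844325) changed most at 19 weeks. It had 17.2, 16.5, 9.29, 18.5 and 17.0 CPM in saline and 1.42 to 8.18 CPM (median 3.12) at 19 weeks, so the groups did not overlap. The log2 fold change was -2.10 (SE 0.53, adjusted p = 0.00218), a 4.28-fold lower level. Tekt2 fell to 0.915 to 3.73 CPM (median 1.90), a log2 fold change of -2.02 (SE 0.37, adjusted p = 5.15e-05). Dnah7a changed by -1.84 (SE 0.44, adjusted p = 0.00130) and Rsph4a by -1.63 (SE 0.51, adjusted p = 0.0132). Rsph4a (chr10:33905111-33916021) had 12.6 to 25.4 CPM in saline and 3.96 to 9.72 CPM at 19 weeks.

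Foxj1 (chr11:116330704-116335499) did not pass the test. It had 34.0, 40.1, 36.1, 42.8 and 34.8 CPM in saline and 18.1 to 142 CPM (median 51.7) at 19 weeks. The 19-week mice lay on both sides of the saline mice, and the log2 fold change was 0.65 (SE 0.64, adjusted p = 0.429). The highest 19-week values were in replicates 7 and 2, at 142 and 82.6 CPM, whose GC slopes of 0.743 and 0.828 were the highest of the group. Ccno, a cyclin-like protein of centriole amplification, was also highest in replicate 7, at 2.88 CPM against 0.600 to 1.49 CPM in the other 6. Mcidas ran from 0.102 to 1.10 CPM at 19 weeks, around its saline values of 0.331 to 0.739 CPM. Rfx3 had 9.40 to 19.9 CPM in saline and 6.19 to 15.7 CPM at 19 weeks.

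Several large axonemal genes lay between these extremes. The outer arm heavy chain Dnah5 had 22.4 to 44.5 CPM in saline and 13.0 to 26.7 CPM (median 17.2) at 19 weeks, and the central pair protein Hydin had 16.2 to 30.5 CPM and then 7.17 to 18.2 CPM. Both pairs of ranges overlapped, and neither gene passed the test. The intermediate chain Dnai1 had 5.04 to 7.70 CPM in saline and 1.37 to 5.14 CPM at 19 weeks. Tekt1 had 8.98 to 12.1 CPM and then 3.13 to 6.89 CPM, with no overlap. Rsph1 had 10.8 to 19.0 CPM and then 7.54 to 13.0 CPM. Tubb4b had 190 to 252 CPM in saline and 159 to 230 CPM at 19 weeks.

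**Figure D3:**
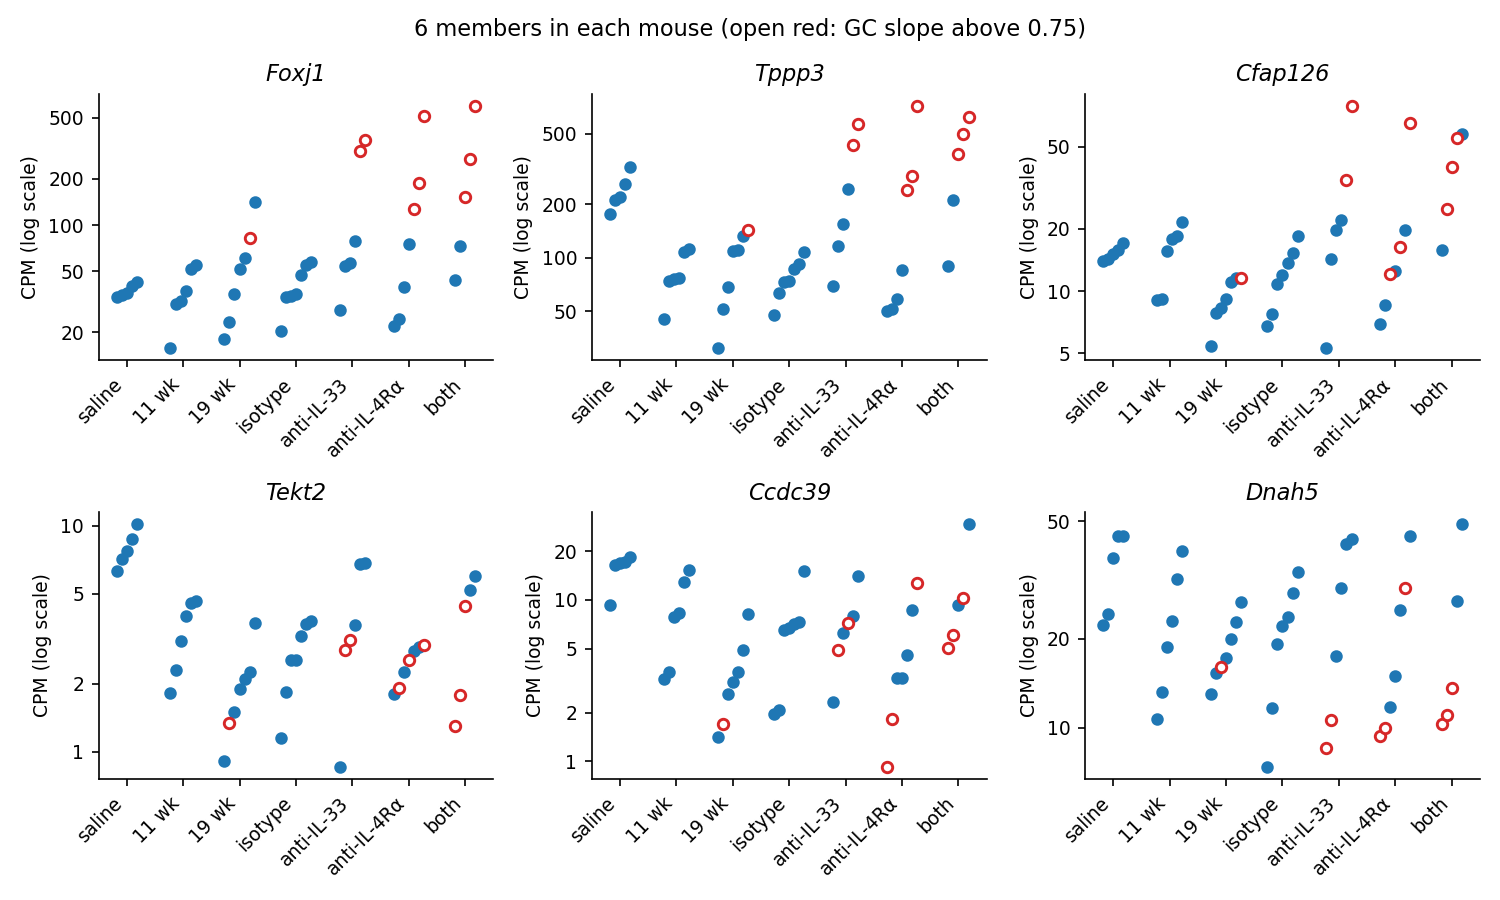
Each point is the CPM of a member in a mouse, on a log axis, by group (saline, HDM for 11 or 19 weeks, and 19 weeks of HDM with isotype, anti-IL-33, anti-IL-4Rα or both), with open red points for libraries of GC slope above 0.75. Tekt2 and Ccdc39 at 19 weeks lie below all saline mice, and the highest Foxj1 and Tppp3 points, up to 600 and 721 CPM, are open red.

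Which members passed at 19 weeks went with GC content. The transcripts of the members held 39.9% to 61.4% GC, with a median of 50.7% against 50.2% over the genes tested. Of the 19 members with GC content below the median of all genes 14 were lower, and of the 23 above it 6 were lower. Across the 42 members, log2 fold change and GC content had a correlation of 0.602, and over all genes tested of 0.417; genes of the same libraries are not independent, and no test was made. The members lay below other genes on both sides: those above the median GC had a median log2 fold change of -0.70 where all such genes had 0.47, and those below it had -1.25 where all such genes had -0.36. With a covariate for GC slope 15 members were lower, of which 7 were among the 20. With offsets for GC content and length in each library 27 were lower, of which 16 were among the 20. Foxj1 changed sign under both, to -0.95 and -0.59. Tekt2, Ccdc39, Dnah7a, Ccdc113 and Tekt1 were lower in all 10 alternative analyses.

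**Figure D4:**
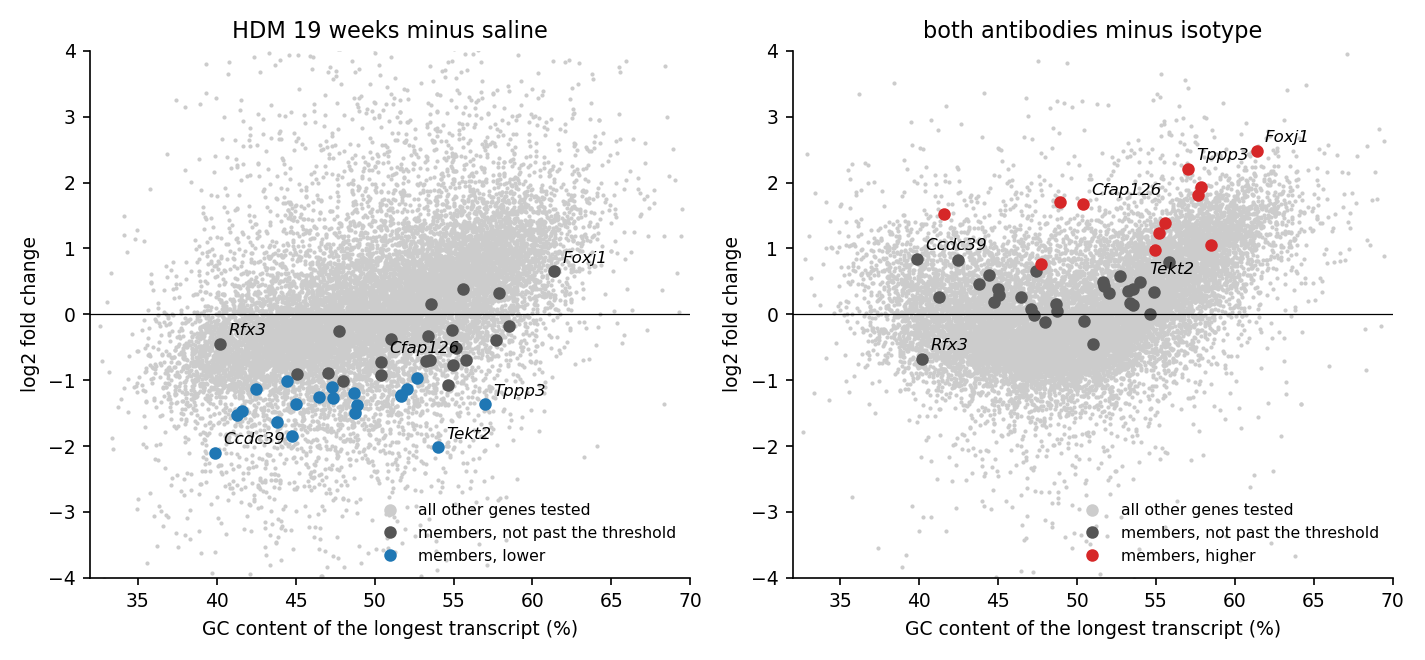
Points are log2 fold changes against the GC content of the longest transcript, for 19 weeks of HDM minus saline (left) and both antibodies minus isotype (right), with all other tested genes in grey (those beyond 4 in either direction lie outside the plot) and members coloured by call. On the left 20 members are lower, 14 of them below the median GC, and on the right 12 are higher, 9 of them above it.

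Between 11 and 19 weeks of HDM no member passed edgeR's test, against 0.0876% of all genes higher and 0.0188% lower. DESeq2 and voom also gave 0, and 5 members had an unadjusted p under 0.05. The median log2 fold change was -0.43. The members with the lowest p were Ccdc39, at -1.22 (SE 0.50, adjusted p = 0.311), and Rsph1, at -0.64 (SE 0.28, adjusted p = 0.325). Foxj1 was at 0.67 (SE 0.61, adjusted p = 0.541). No member thus differed between the 11-week and 19-week mice beyond the spread shared by all groups, which does not show that the levels were alike.

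Isotype mice were compared with the 19-week mice given no antibody. No member passed edgeR's test, nor did any gene (0.0% of all genes); DESeq2 and voom gave 0 members, and 1 had an unadjusted p under 0.05. The median log2 fold change was 0.20, and 33 of the 42 estimates were positive. That no member passed does not show that the levels were alike. Dnah7a was at 0.96 (SE 0.41), Ccdc39 at 0.87 (SE 0.49) and Foxj1 at -0.54 (SE 0.58), each with an adjusted p of 0.977. Ccdc39 spread from 1.98 to 15.2 CPM among the isotype mice. Isotype replicates 1 and 4 had the lowest members' means, 1.89 and 2.14, and the other 5 had 2.95 to 3.54.

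The 3 antibody arms were compared with the same 7 isotype mice, so their estimates share that reference. With anti-IL-33, 0 of 42 members passed edgeR's test (0.0% of all genes), while 13 had an unadjusted p under 0.05. The median log2 fold change was 0.39, and 40 of 42 estimates were positive. The median was 0.20 without anti-IL-33 replicate 2, 0.23 without replicate 3 and 0.69 with a term for the library number run. DESeq2 gave 0 and voom with sample weights gave 6 higher; without anti-IL-33 replicate 7, whose members' mean was the lowest of its group at 2.18, 2 were higher. The lowest p values were those of Tppp3, at 1.76 (SE 0.50, adjusted p = 0.246), and Tekt4, another tektin, at 1.76 (SE 0.51, adjusted p = 0.246). Foxj1 was at 1.85 (SE 0.61, adjusted p = 0.246), with a 95% interval from 0.66 to 3.05. Its 305 and 359 CPM in replicates 4 and 5, both of GC slope above 0.75, stood apart from 28.0 to 78.2 CPM in the other 4 mice.

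With anti-IL-4Rα, 0 of 42 members passed the test (0.0% of all genes), DESeq2 and voom gave 0, and 6 had an unadjusted p under 0.05. The median log2 fold change was -0.08. Foxj1 was at 1.80 (SE 0.60, adjusted p = 0.308) and Tppp3 at 1.46 (SE 0.48, adjusted p = 0.308). Foxj1 had 517, 187 and 127 CPM in replicates 2, 6 and 8, the 3 with a GC slope above 0.75, and 22.1 to 74.9 CPM in the other 4, of which 3 lay within the isotype range of 20.5 to 57.3 CPM. All anti-IL-4Rα libraries have numbers in the lower run and all isotype libraries in the higher, and the order of libraries and the antibody cannot be told apart.

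With both antibodies, 12 of 42 members were higher than with isotype and 0 lower, against 12.6% of all genes higher and 6.32% lower. The median log2 fold change was 0.44, against 0.04 over all genes tested, and 37 estimates were positive. Omitting 1 mouse moved this median to between 0.19, without combination replicate 2, and 0.63, without combination replicate 1. For 4 members, Ccdc113, Ccdc151, Dnai2 and Rfx2, every combination mouse was above every isotype mouse, against 1.83% of all genes. The 12 were the regulators Foxj1, Rfx2 and Ccno; the outer arm chain Dnai2; the docking proteins Ccdc114 and Ccdc151; the assembly factor Lrrc6; Ccdc113; the spoke head protein Rsph9; and Tekt4, Cfap126 and Tppp3 of the doublets. None of the 5 inner arm dyneins and none of the 5 central pair proteins passed. With the GC and length offsets, however, the central pair proteins Spag6l, Spag17 and Spef2 were called higher. Transcripts of the 12 called members were 966 (Rsph9) to 3350 bases long (Rfx2). Among the inner arm dyneins Dnali1 had 2133 bases and the heavy chains 12245 to 13704. The central pair had 2416 (Spag6l) to 15783 bases (Hydin). Whether these roles differed apart from length was not tested. Of the 20 genes lower after 19 weeks of HDM, Ccdc113, Lrrc6 and Tppp3 were among the 12.

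Foxj1 had 600, 43.8, 73.3, 152 and 268 CPM in combination replicates 1, 2, 3, 5 and 8. Replicates 1, 5 and 8 have a GC slope above 0.75, and replicate 2 has the lowest slope of all 43 libraries and lies within the isotype range. The log2 fold change was 2.48 (SE 0.64, adjusted p = 0.0155). Tppp3 had 618, 89.9, 212, 384 and 496 CPM, against 47.5 to 107 CPM (median 73.8) with isotype, a log2 fold change of 2.21 (SE 0.52, adjusted p = 0.00989). Ccno had 7.27, 0.666, 1.37, 3.16 and 3.09 CPM, against 0.477 to 1.21 CPM, a log2 fold change of 1.93 (SE 0.54, adjusted p = 0.0200). Tekt4 had 20.1, 4.73, 7.18, 14.7 and 18.2 CPM, against 1.83 to 4.82 CPM, a log2 fold change of 1.81 (SE 0.52, adjusted p = 0.0232). For these 4 genes replicate 2 was the lowest combination mouse.

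Other members followed another order of mice. Ccdc113 (chr8:95534060-95558888) had 15.9, 19.9, 8.09, 10.2 and 15.6 CPM, all above the isotype mice at 1.67 to 6.46 CPM. Cfap126 (chr1:171113912-171126956) had 55.5, 57.4, 15.9, 24.9 and 40.1 CPM, against 6.76 to 18.4 CPM, and overlapped only through replicate 3. Replicate 2 was the highest combination mouse for both. It was also the highest for Rsph4a, at 34.1 CPM against 3.02 to 11.4 CPM in the other 4, and for Dnah5, at 48.9 CPM against 10.3 to 26.9 CPM. Rfx3 had 7.46, 16.4, 8.503, 2.12 and 3.17 CPM, and replicates 1, 5 and 8 were below all isotype mice, which ran from 7.48 to 15.3 CPM.

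The combination result depended on a few libraries. It was 0 members without combination replicate 1, which leaves only mice with library numbers in the higher run in both groups, 5 without replicate 8 and 7 without isotype replicate 1. Without the steep libraries 2 members remained higher, Ccdc113 and Cfap126, and the 2 combination mice then left had a median log2 fold change over the members of 0.90. With the GC slope as a covariate 6 remained, Ccdc113, Ccdc151, Cfap126, Lrrc6, Rfx2 and Tppp3, and Foxj1 was at 1.11. With voom the median was 0.10, with 13 members higher and 1 lower, and with the GC and length offsets 11 were higher and Rfx3 was lower. Of the 23 members above the median GC content 9 were higher and of the 19 below it 3. The members above it had a median log2 fold change of 0.49, near the 0.41 of all such genes. Those below it had 0.30, where all such genes had -0.25. The estimates also went with transcript length. Across the members, log2 fold change and log2 length had a correlation of -0.631, and over all genes tested of -0.299. For GC content these were 0.443 and 0.368. The correlation with length was -0.598 with anti-IL-33 and -0.447 with anti-IL-4Rα, against -0.341 and -0.258 over all genes. These correlations were not tested. Ccdc113 and Cfap126 were higher in all 10 alternatives and Tppp3 in 9, while Foxj1 was called in 7.

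The GC slope itself was tested as a term beside the group means. Of the members 10 were higher and 21 lower with a rising slope, against 36.3% and 41.3% of all genes. Foxj1 had the largest positive coefficient, 1.73 on the log2 scale for each unit of slope (SE 0.21, adjusted p = 1.99e-09), followed by Ccno at 1.54 and Tppp3 at 1.42. Rsph4a had the lowest, -1.46 (SE 0.17, adjusted p = 2.84e-10), and Rfx3 was at -1.27. Members thus moved in both directions with this property of the libraries, as genes in general did. The coefficient and GC content had a correlation of 0.684 over the members and 0.706 over all genes tested. The part of base composition or of transcript length in the group differences was not tested beyond these fits.

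The test of whether the effect of both antibodies differed from the sum of the single effects gave 0 of 42 members with edgeR (0.0% of all genes), 0 with DESeq2 and 8 with voom, and 0 members had an unadjusted p under 0.05. Foxj1 was at -1.17 (95% interval from -2.89 to 0.55, SE 0.88, adjusted p = 0.995). The members with the lowest p were Ccdc39, at 1.18 (SE 0.73), and Tekt4, at -1.05 (SE 0.73), each with an adjusted p of 0.995. The intervals allow large differences in either direction.

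X-box letters and the response to both antibodies were also set side by side, after the values had been seen. Of the 8 members with the longer X-box form in a window 6 were higher with both antibodies: Ccdc151, Ccno, Cfap126, Rfx2, Rsph9 and Tekt4. Spag6l and Zmynd10 did not pass. Of the 28 members with a window and without these letters 3 were higher, and of all genes tested 12.6% were. The 8 have transcript GC contents of 47.4% to 58.5%, with a median of 55.7%. Among all 42 members, 9 of the 23 above the median GC content of the genes tested were higher, and 3 of the 19 below it. Whether the response went with the letters apart from GC content was not tested. Of the 6 with the shorter form, Dnai2 alone was higher, and of the 30 without it 8 were. Of the 17 members with the RFX half-site 5 were higher, and of the 19 without it 4. For the CCAAT box, no more frequent in the members' windows than in general, 6 of 16 with it were higher and 3 of 20 without it. The longer form thus had the widest split of these 4, and the half-site nearly none. After 19 weeks of HDM 1 of the 8 with the longer form, Spag6l, was lower than in saline, and 15 of the 28 were, against 15.6% of all genes.

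Other genes of the motile cilium were counted in the same fit. Of 82 tested, 3 were lower and 3 higher after 11 weeks of HDM, against 6.74% and 8.65% of all genes. At 19 weeks 39 were lower and 2 higher, against 15.6% and 19.2% of all genes, with a median log2 fold change of -0.91. With both antibodies 25 were higher and 0 lower, against 12.6% and 6.32% of all genes, with a median of 0.60. Gmnc, which acts at the start of the multiciliated cell fate, fell by 2.74 on the log2 scale (SE 0.60, adjusted p = 0.000544) at 19 weeks. Spa17 and Cfap53 rose by 2.11 and 2.02 with both antibodies. Spag6 rose by 2.58 (SE 0.57) at 19 weeks, against the direction of its near-identical relative Spag6l, and reads may be split between the 2. Of the 39 genes of intraflagellar transport and the primary cilium, which most cells carry, 17 were lower and 0 higher at 19 weeks, and 3 were higher and 1 lower with both antibodies, a smaller share higher than among all genes. Of the 17 centriole amplification genes 3 were lower and 1 higher at 19 weeks, which for the lower genes is near the share of all genes, and 0 passed in either direction with both antibodies.

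Markers of the other airway cells moved in the same comparisons. Their counts stand beside 19.2% of all genes higher and 15.6% lower at 19 weeks, and 12.6% and 6.32% with both antibodies. Club cells are the secretory cells that share the airway surface with ciliated cells. The sum of 12 club cell genes was 13480 to 22440 CPM in saline, 3866 to 7343 CPM after 19 weeks of HDM and 2782 to 7592 CPM with isotype. It was 2637 to 25290 CPM with anti-IL-33, 3768 to 23600 CPM with anti-IL-4Rα and 7188 to 16770 CPM with both antibodies. Of the 12, 7 were lower and 1 higher at 19 weeks, and 7 were higher and 0 lower with both antibodies. The members' summed level was 923 to 1127 CPM in saline, 412 to 755 CPM at 19 weeks and 392 to 861 CPM with isotype. It was 491 to 1492 CPM with anti-IL-33, 440 to 1772 CPM with anti-IL-4Rα and 959 to 1751 CPM with both antibodies. This sum leans on a few abundant members: Tppp3 and Foxj1 held 618 and 600 CPM in combination replicate 1. The average of the members' log2 CPM was lower with both antibodies than in saline, 3.34 against 3.62. Goblet cell and mucus genes went the other way at 19 weeks, with 11 of 11 higher, summing to 662 to 1355 CPM against 41.1 to 94.8 CPM in saline. With both antibodies 4 goblet genes were higher and 2 lower. General epithelial genes summed to 755 to 986 CPM in saline and 881 to 1600 CPM at 19 weeks, with 6 of 13 higher, and 5 of 13 were higher with both antibodies. The part of a change in cell makeup in the members' result was not tested.

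**Figure D5:**
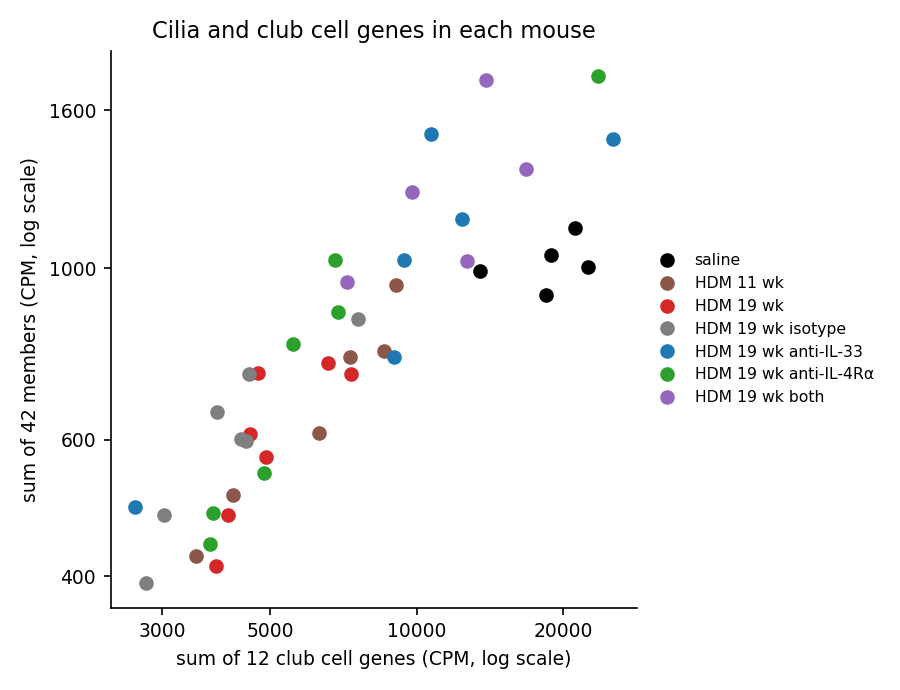
Each point is a mouse, with the sum of 12 club cell genes on the horizontal and of the 42 members on the vertical log axis, both in CPM and coloured by group. Saline mice lie at 13480 CPM of club cell genes or more, and the 19-week mice without antibody at 7343 CPM or less. The members reach 1751 CPM with both antibodies, 1772 CPM with anti-IL-4Rα and 1492 CPM with anti-IL-33.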

How the data were processed

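Whole-lung RNA was sequenced in 43 mice. Per the labels' protocols, libraries came from a stranded mRNA kit and were read as single reads of 33 cycles; the genome build was mm10 per the submitters' processing notes. Which aligner and counting program were run, and whether strand was used, is not given in the sources used here. The deposited table holds expected counts per NCBI Gene ID (76.8% of nonzero values are whole), with 11932579 to 26749395 counts per library. Symbols and positions came from RefSeq GRCm38.p6 for 24375 identifiers, and GC content and length from the longest GENCODE M21 transcript of 24075.

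Counts were rounded, filtered by group (15979 genes kept), scaled with TMM factors and fitted with a mean per group in edgeR 4.0.16 (R 4.3.3, robust quasi-likelihood, 36 residual degrees of freedom). P-values were 2-sided, adjusted by Benjamini-Hochberg over all genes tested and called under 0.05. They set a difference against the spread between mice within groups, estimated for each gene over all 7 groups together. Libraries outside a comparison thus enter its p-values. CPM values use the scaled library sizes, and log2 CPM a prior count of 1. Steps were tested on simulated data. Alternatives used DESeq2 1.42.0, limma 3.58.1 (voom), other scaling and filtering, GC corrections, a library number term, a replicate block and the omission of libraries.

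The members and the gene lists were chosen with earlier results of these data known. Members named with full statistics were Foxj1 and up to 4 per direction with the largest change among those called, or the 2 with the lowest p; ranges are given for 13 members. Lists of other cell types were counted and not tested as sets. Results for basal, alveolar, neuroendocrine and cartilage genes are in the closing section.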

Additional observations from a re-analysis of the deposited data

Results flagged for a closer look

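Within each group of 4 to 10 mice, the gap between the most extreme mouse and its neighbour was compared with the range of the group, in 98 checks of members. Chance marks about 1 in 20 such checks, and 2 were marked. Ccdc39 was low in saline replicate 3, at 3.22 log2 CPM, where the next saline mouse had 4.05. This mouse also carried the basal and squamous keratin RNA. Tubb4b was high in anti-IL-33 replicate 5, at 8.38 log2 CPM, where the next mouse of the group had 7.79. That library had the highest GC slope of the series, 1.21.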

How the results depend on the processing

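Most values kept their direction and side of the threshold: of the alternative values for named members 583 did, 38 lost and 4 gained the call and 20 changed sign, and of those for counts and medians 368 stayed close and 23 moved. With voom the called members numbered 29 at 11 weeks, 37 at 19 weeks, 6 with anti-IL-33 and 8 for the interaction. A term for the library number run moved the median to -1.74 for 19 weeks against saline, -1.11 for 19 against 11 weeks (2 called, Tekt1 and Tekt2), 0.75 with anti-IL-4Rα and -0.82 for the interaction. For both antibodies 6 were called with the GC slope covariate, 4 with the replicate block and 2 without the steep libraries, where the interaction median was 0.46. Leaving out 1 mouse in turn gave 0 to 3 called at 11 weeks, 17 to 24 at 19 weeks, 0 to 2 with anti-IL-33 and 0 to 15 with both antibodies, and 0 in the other 4 comparisons. At 11 weeks Foxj1 ran from -0.18 to 0.13 over these omissions. Foxj1 changed sign with the GC slope covariate (-0.95 for 19 weeks against saline, -0.49 against 11 weeks, 0.31 for isotype, 0.083 for the interaction), the GC and length offsets (-0.59, -0.23 and 0.14), voom (-0.10 for 19 weeks, 0.096 for isotype, -0.12 with anti-IL-4Rα, 1.82 for the interaction), without the steep libraries (0.12 for the interaction) and, at 11 weeks, without saline replicate 4 (0.020) or 11-week replicates 3 (0.13), 4 (0.0098) or 9 (0.028). Tppp3 with anti-IL-4Rα was at -0.33 without the steep libraries and -0.24 with voom, and Tekt4 for the interaction at 0.46 and 1.59. The cause was not tested. Same-numbered mice were not treated as pairs in the main fit. In no comparison was every pair's correlation above 0.1. For anti-IL-33 and for both antibodies against isotype, however, 3 of 4 pairs were above it. In each of these, 1 mouse correlated best with its own number. These values do not settle whether the numbers pair the mice. The replicate block left 18 called at 19 weeks and 2 at 11 weeks. Omitting the gene identifier with the largest share of counts, an alternative chosen after seeing the data, left 3, 23 and 12 called at 11 weeks, 19 weeks and with both antibodies. Members with few counts, such as Mcidas (median of 9 counts), allow no small change to be seen.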

Other observations

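Other cell type lists gave the following counts in the same fit. Of all genes 19.2% were higher and 15.6% lower at 19 weeks, and 12.6% and 6.32% with both antibodies. The counts of basal and cartilage genes at 19 weeks are near these shares. After 19 weeks of HDM, 6 of 9 alveolar type 1 genes were lower and 8 of 10 alveolar type 2 genes higher; with both antibodies 2 of 9 were higher and 1 lower, and 2 of 10 were higher. Of 7 airway basal cell genes tested 1 was higher at 19 weeks, and 0 passed with both antibodies. Of 7 neuroendocrine, tuft and ionocyte genes 2 were higher and 1 lower at 19 weeks, and 1 was higher and 2 lower with both antibodies. Of 5 cartilage genes 1 was higher, as was 1 with both antibodies. Of 6 submucosal gland and squamous genes 2 were higher at 19 weeks and 0 passed with both antibodies; their sum was 11660 CPM in saline replicate 3, 4619 CPM in 19-week replicate 1 and at most 686 CPM in any antibody mouse. No testis germ cell gene passed the filter.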
